A study of Mus musculus with 3 samples.

Results

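Axon guidance genes encode secreted or membrane-bound cues and the receptors that read them. The ligands and receptors described here are the semaphorins with the plexins and Nrp2, the ephrins with the Eph receptors, the Slits with the Robo receptors, and the netrins with Dcc and the Unc5 receptors. Members were chosen by gene symbol: names starting with Sema, Plxn, Efna, Efnb, Epha or Ephb, together with Slit1 to Slit3, Robo1 to Robo3, Ntn1, Ntn4, Dcc, Unc5a to Unc5d and Nrp2. The array carried 94 such probes for 66 genes, of 55681 non-control probes for 36977 genes and other transcripts. Of the 66 genes, 58 passed a filter on dim probes and were tested, among 23549 in all.

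RNA of Brpf1-deficient mouse embryos, labelled with Cy5 (red), was hybridised with RNA of wild-type mouse embryos, labelled with Cy3 (green), on 3 Agilent arrays. The embryos of every group were of stage E8.75 (embryonic day) and untreated, and the arrays are labelled as pairs 1, 2 and 3. The labels give neither the allele of Brpf1 nor the strain. Whether 1 embryo or a pool gave each RNA is not stated either, so p-values measure the spread between these 3 pairs, which may be technical. All arrays had the same dye orientation, so dye and genotype cannot be told apart.

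Each value is a log2 ratio of Cy5 over Cy3, after background correction and loess normalisation within the array, and is above 0 where the probe was brighter in the channel labelled Brpf1-deficient. Brpf1 itself, which encodes a scaffold of histone acetyltransferase complexes, was brighter in that channel, with log2 ratios of 2.01, 1.43 and 1.06 in pairs 1, 2 and 3 (mean 1.499 ± 0.19, SE, n = 3; limma adjusted p = 0.0405). This is the reverse of what a loss of Brpf1 transcript in the labelled channel would give. The value rests on 1 probe, and whether that probe lies in the disrupted part of the gene is not known. As dye and genotype cannot be told apart either, Brpf1 does not settle whether the labels are right. Every direction below is therefore that of the channel as labelled and is not assigned to a genotype.

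Semaphorins signal through plexins, and most secreted class 3 forms also need a neuropilin as coreceptor. Ephrins sit in the membrane of the sending cell and bind Eph tyrosine kinases on a neighbour. Slits repel growth cones through Robo receptors, and netrins attract through Dcc or repel through Unc5 receptors. Before axons grow, the same families are known for work in the early embryo, among them hindbrain segment and somite boundaries (Eph and ephrin), artery and vein identity (Efnb2 and Ephb4) and neural crest migration (semaphorins, ephrins and Slits).

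None of the 58 tested members passed an adjusted p of 0.05 in limma, where 326 of the 23549 genes did (1.38%; 1.29% with more signal in Cy5 and 0.0934% with less). At an unadjusted p below 0.05 there were 6 members (10.3%), against 17.3% of all genes. Of these, 5 had less signal in Cy5 (Robo2, Sema3b, Plxna3, Plxnc1 and Sema5b), where the share of all genes is 9.11%, and 1 had more (Plxna1), where it is 8.23%. The members' median log2 ratio was -0.03, against -0.02 over all genes, and 50 of 58 members (86.2%) lay between -0.25 and 0.25, against 78.9% of all genes. The median size of the ratio, whatever its sign, was 0.12 among members and 0.13 among all genes. The same sign in all 3 pairs was seen in 15 members (25.9%), against 43.4% of all genes. Of the 15, 6 lay above 0 in each pair, as did 19.7% of all genes, and 9 lay below 0, as did 23.8%.

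The 95% confidence interval of the mean, from limma's moderated standard error, lay within 0.5 of 0 on the log2 scale for 44 members (75.9%, against 70.4% of all genes). It lay within 1 of 0, a 2-fold difference in either direction, for 56 members (96.6%, against 96.5% of all genes). The exceptions were Sema3b, with an interval of -1.04 to -0.22, and Dcc, with -1.03 to 0.21. For each other member taken singly, the interval of its brightest probe thus bounds the difference between the channels in these 3 pairs below 2-fold. The 95% level holds for each interval alone and not for all members at once. Smaller differences were not detectable where the interval included 0. An exact sign-flip test over 3 pairs cannot go below p = 0.25, so no member is given one.

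**Figure D1:**
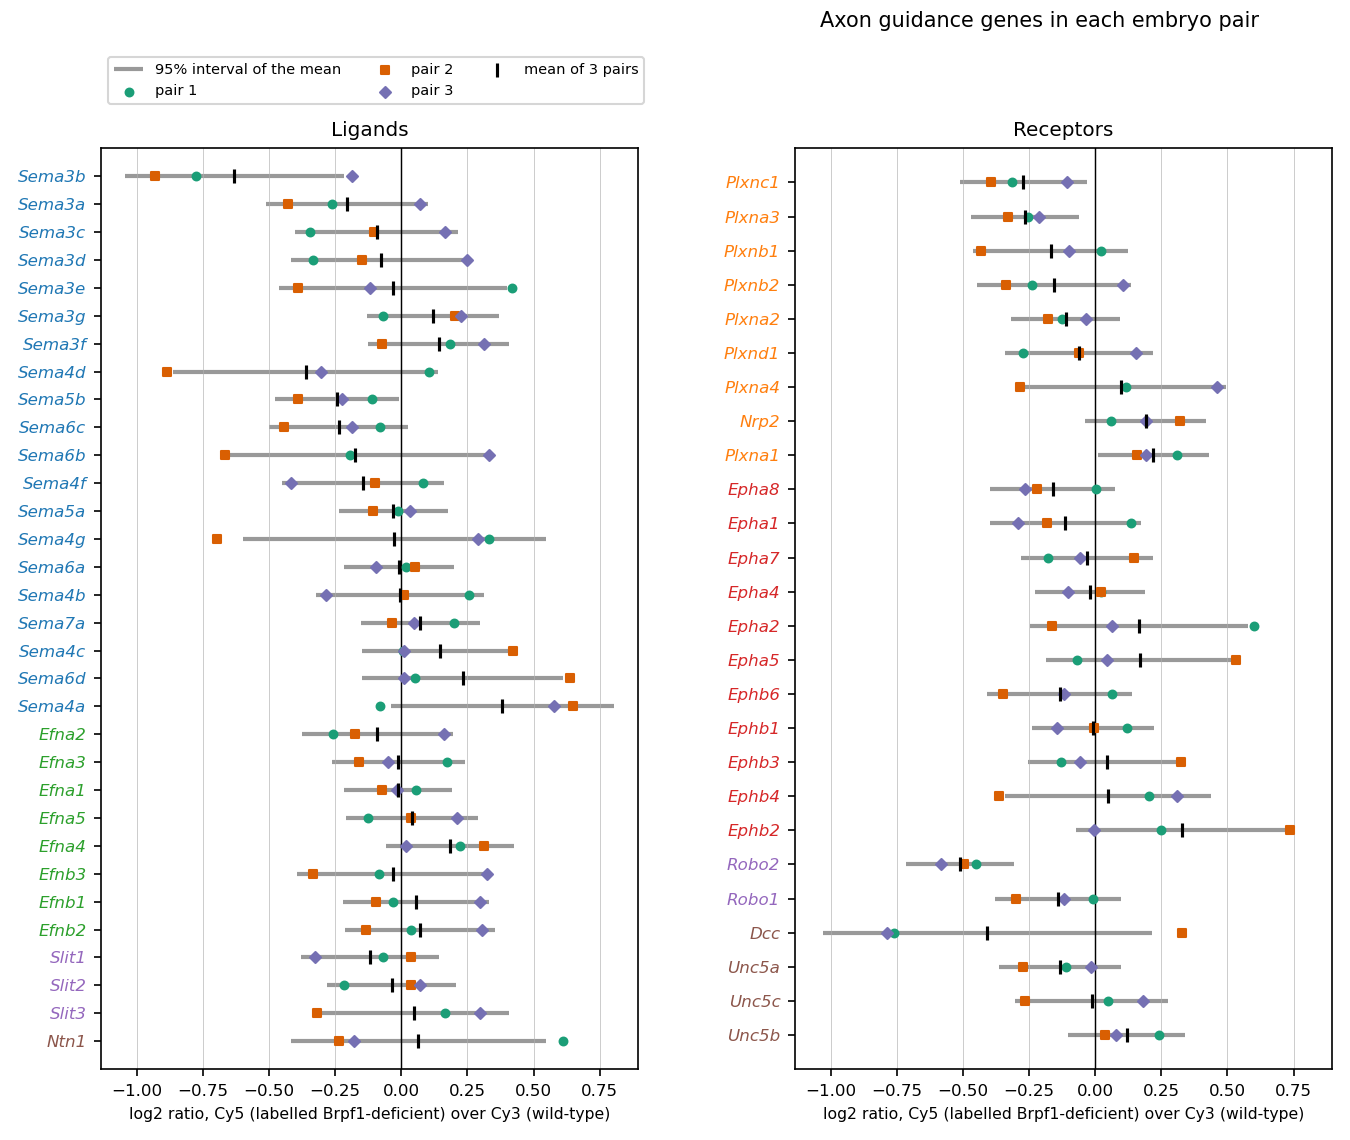
Log2 ratio of Cy5 (labelled Brpf1-deficient) over Cy3 (labelled wild-type) for the 58 tested members, ligands on the left and receptors on the right, with gene names coloured by family. Points are pairs 1 to 3, black ticks the mean of the 3 pairs and grey bars its 95% interval. Robo2 has its 3 points together between -0.58 and -0.45, while Dcc has 2 points near -0.8 and 1 above 0.

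No member lay among the brightest genes. Their mean log2 intensity over both channels ran between 7.80 (Epha8) and 15.9 (Sema4c), with a median of 11.2, against 10.6 over all genes. Of the 326 genes past the threshold, 280 (85.9%) lay among the 544 genes above 17, whose median log2 ratio was 0.75. Intensities of different probes are not compared as expression levels. All tested members but Epha8 were well above background in both channels on all 3 arrays.

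**Figure D2:**
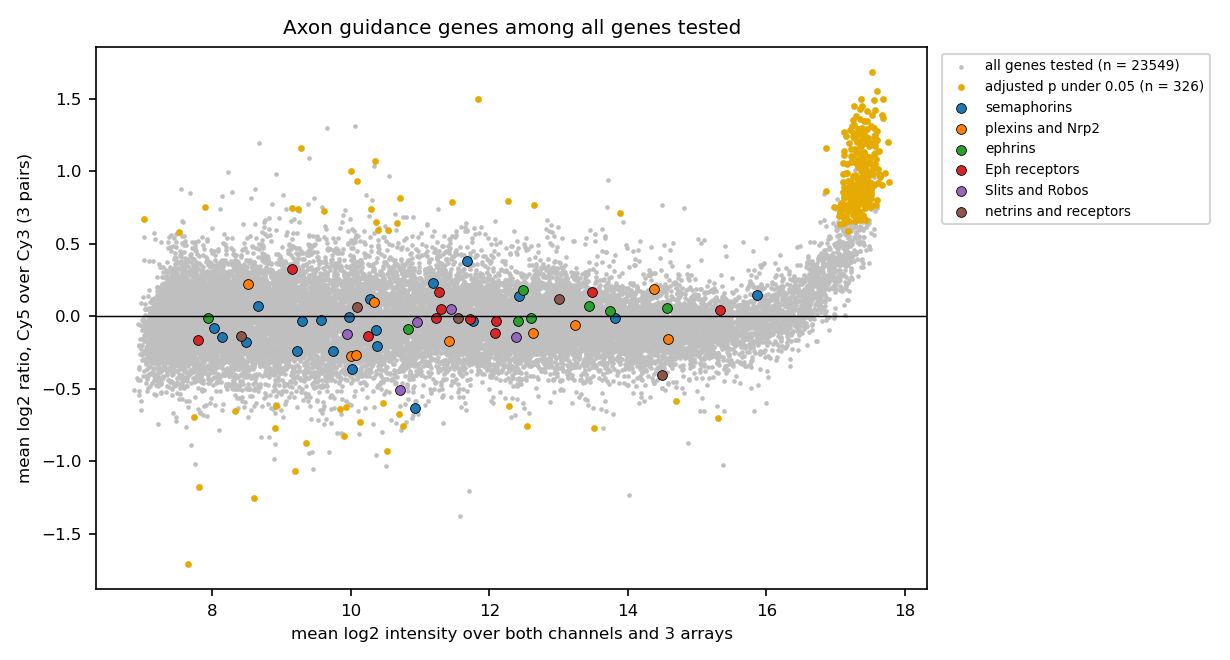
Mean log2 ratio of Cy5 over Cy3 (vertical) against mean log2 intensity (horizontal) for the 23549 genes tested, in grey, with the 326 genes past an adjusted p of 0.05 in yellow and the 58 axon guidance genes coloured by family. The coloured points lie between -0.63 and 0.38 and all sit left of the bright genes above 17, where most yellow points are.

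Among the Slits and Robos, Robo2 had the smallest p of all members. Robo2 is a Slit receptor of neurons and also acts in kidney and heart development. Its normalised intensity was 1312 (pair 1), 1673 (pair 2) and 1263 (pair 3) in Cy5, against 1793, 2359 and 1893 in Cy3. The highest Cy5 value lay below the lowest Cy3 value. The log2 ratios were -0.45, -0.50 and -0.58, with a mean of -0.51 ± 0.08 (SE, n = 3; 95% interval -0.72 to -0.30), 0.702-fold in Cy5 relative to Cy3. This did not pass the threshold (limma adjusted p = 0.0739). Of all genes 1.81% had a smaller p. Robo2 was measured by 3 kept probes, and each had less signal in Cy5 in every pair. The other probes gave mean log2 ratios of -0.28 (-0.34, -0.11 and -0.38 in pairs 1, 2 and 3) and -0.32 (-0.36, -0.17 and -0.44). The probe with a mean of -0.32 carries the name Robo2 through the deposited gene table and not through a RefSeq accession.

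In a fit of all 31598 kept probes one by one, the 3 Robo2 probes had limma adjusted p-values of 0.101, 0.277 and 0.241, in the order above. With the mean of its probes in place of the brightest, the log2 ratio of Robo2 was -0.37 ± 0.08 (SE; limma adjusted p = 0.178). Robo1, the receptor most like Robo2, had log2 ratios of -0.01, -0.30 and -0.12 in pairs 1, 2 and 3 (mean -0.14 ± 0.09, SE; limma adjusted p = 0.465). Whether Robo1 and Robo2 differ was not tested. Robo3, known for its role in midline crossing of commissural axons, was well above background on 1 of 3 arrays in each channel and was not tested.

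The 3 Slits showed no common direction. Slit1 had log2 ratios of -0.07, 0.04 and -0.33 in pairs 1, 2 and 3 (mean -0.12 ± 0.10, SE; limma adjusted p = 0.567). Slit2 had -0.22, 0.04 and 0.07 (mean -0.04 ± 0.10; adjusted p = 0.863), and its mean was 0.05 without pair 1. Slit3 had 0.16, -0.32 and 0.30 (mean 0.05 ± 0.14; adjusted p = 0.879). All 3 means lay within 0.12 of 0, and each Slit had pairs on either side of 0.

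Windows of RefSeq start sites, from 250 bases before to 50 bases after the start on GRCm38.p6, are shown for Robo2 as the member with the smallest p and for Plxna3, next among members with a window in the table. RefSeq lists 3 Robo2 starts, all on the minus strand: chr16:75447244-75447543 (window 1), chr16:75092721-75093020 (window 2) and chr16:74411776-74412075 (window 3). The Plxna3 start is on the plus strand at chrX:74328816-74329115. Capitals mark CG dinucleotides.
Robo2 window 1: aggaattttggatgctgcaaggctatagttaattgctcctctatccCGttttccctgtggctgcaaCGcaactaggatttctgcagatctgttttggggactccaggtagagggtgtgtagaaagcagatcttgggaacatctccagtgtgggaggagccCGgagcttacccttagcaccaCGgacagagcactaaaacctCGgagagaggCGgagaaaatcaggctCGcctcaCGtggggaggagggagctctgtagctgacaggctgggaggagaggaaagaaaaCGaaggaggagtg
Robo2 window 2: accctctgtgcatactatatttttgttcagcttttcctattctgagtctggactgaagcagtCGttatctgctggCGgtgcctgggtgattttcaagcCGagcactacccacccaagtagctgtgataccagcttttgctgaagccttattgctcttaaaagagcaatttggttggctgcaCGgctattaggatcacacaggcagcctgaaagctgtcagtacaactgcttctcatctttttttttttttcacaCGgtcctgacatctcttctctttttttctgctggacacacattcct
Robo2 window 3: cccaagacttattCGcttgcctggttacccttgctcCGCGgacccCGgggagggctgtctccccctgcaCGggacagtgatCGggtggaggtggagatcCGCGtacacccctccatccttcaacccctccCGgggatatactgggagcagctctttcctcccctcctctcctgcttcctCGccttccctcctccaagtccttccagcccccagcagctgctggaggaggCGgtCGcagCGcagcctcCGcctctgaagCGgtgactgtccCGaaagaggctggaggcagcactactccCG
Plxna3: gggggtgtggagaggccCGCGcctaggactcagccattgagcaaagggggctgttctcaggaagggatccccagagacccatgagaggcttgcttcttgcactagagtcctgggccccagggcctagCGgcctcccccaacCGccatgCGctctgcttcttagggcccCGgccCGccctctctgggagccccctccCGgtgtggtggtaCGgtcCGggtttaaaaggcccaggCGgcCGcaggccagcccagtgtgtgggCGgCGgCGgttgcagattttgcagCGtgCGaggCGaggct
The Robo2 windows hold 9, 5 and 17 CG dinucleotides and the Plxna3 window holds 18. None of the 4 contains TATAAA on either strand. The array does not tell from which start a Robo2 transcript came.

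CG dinucleotides were frequent in the windows of the family. The table holds 71 windows for 55 of the 66 genes. At least 1 CG was present in 100% of the members' windows, against 95.4% of the 21263 windows of all protein-coding genes. The median number per window was 20 for members and 13 for all protein-coding genes, and 77.5% of the members' windows, against 56.8% of all, held at least 10. TATAAA, on either strand, was present in 2 of the 71 members' windows (2.8%), against 12.6% of all. These are counts of letters in windows, with no test.

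Among the semaphorins, 20 of 20 genes on the array were tested, with a median log2 ratio of -0.03 and values between -0.63 and 0.38. At an unadjusted p below 0.05 were 2 of them (10%, against 17.3% of all genes), Sema3b and Sema5b. Both had less signal in Cy5, where the share of all genes is 9.11%. Sema3b, a secreted class 3 semaphorin, had the lowest mean log2 ratio of all members, and the one farthest from 0. Its normalised intensity was 1728, 1238 and 1786 in Cy5 in pairs 1, 2 and 3, against 2956, 2358 and 2034 in Cy3. The channels did not overlap, and the gap was small in pair 3. The log2 ratios were -0.77, -0.93 and -0.19, with a mean of -0.63 ± 0.16 (SE, n = 3; limma adjusted p = 0.185), 0.646-fold in Cy5. Without pair 3 the mean was -0.85 ± 0.12 (adjusted p = 0.121).

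The other class 3 semaphorins lay nearer to 0. Sema3a, the classic repellent of this class, had log2 ratios of -0.26, -0.43 and 0.07 in pairs 1, 2 and 3 (mean -0.21 ± 0.12, SE; limma adjusted p = 0.42). Its dimmer second probe gave 0.03, 1.11 and -0.23, so that the probes lay on both sides of 0. Sema3c, known for its part in outflow tract formation, had a mean of -0.09 ± 0.12, and its second probe gave 0.20. Sema3d, Sema3e, Sema3f and Sema3g had means between -0.08 and 0.14. The median of the 7 class 3 members was -0.26, -0.15 and 0.17 in pairs 1, 2 and 3.

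The membrane-bound and other semaphorins comprised 13 members with a median of -0.03. Sema5b, a transmembrane semaphorin with thrombospondin repeats, had a normalised intensity of 826, 817 and 730 in Cy5, against 892, 1071 and 853 in Cy3. The channels did not overlap. Its log2 ratios were -0.11, -0.39 and -0.22 (mean -0.24 ± 0.09, SE, n = 3; limma adjusted p = 0.281), but 2 dimmer Sema5b probes gave means of 0.10 and -0.0007. With the mean of its probes the Sema5b ratio was -0.05.

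Sema4a, a transmembrane semaphorin also known from immune cells, had the largest positive mean ratio of the family. Its log2 ratios were -0.08, 0.65 and 0.58 in pairs 1, 2 and 3 (mean 0.38 ± 0.16, SE; limma adjusted p = 0.318), and the mean was 0.61 ± 0.13 without pair 1 (adjusted p = 0.309). Sema4d had 0.11, -0.88 and -0.31, and Sema4g had 0.33, -0.70 and 0.29. In Sema4d and Sema4g pair 2 was the lowest of the 3 pairs. Sema6c had a mean of -0.24 ± 0.10 (limma adjusted p = 0.32), and its second probe gave 0.05. Sema6a, a transmembrane semaphorin that binds A-type plexins, had a mean of -0.01 ± 0.08, with a 95% interval of -0.22 to 0.20. Sema4c, the member with the highest probe intensity, had 0.01, 0.42 and 0.01 in pairs 1, 2 and 3 (mean 0.15 ± 0.12). Sema6d, with 0.05, 0.64 and 0.01, likewise had its largest value in pair 2. The remaining members, Sema4b, Sema4f, Sema5a and Sema6b, had means between -0.18 and -0.01. The ratio of Sema4c was 0.47 with median centring in place of loess (limma adjusted p = 0.203).

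Plexins are the semaphorin receptors, and 8 plexin genes with Nrp2 were tested of 11 members on the array. Their median log2 ratio was -0.11, with values between -0.27 and 0.22. At an unadjusted p below 0.05 were 3 of the 9 (33.3%, against 17.3% of all genes), 2 with less signal in Cy5 and 1 with more. Plxna3, a coreceptor partner of neuropilins for class 3 semaphorins, had a normalised intensity of 1026, 1087 and 860 in Cy5, against 1222, 1366 and 996 in Cy3. Cy5 was lower within every pair. Across arrays, whose intensities were scaled within an array only, the ranges of the channels overlapped. The log2 ratios were -0.25, -0.33 and -0.21 (mean -0.26 ± 0.08, SE, n = 3; limma adjusted p = 0.22).

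Plxnc1, the receptor of Sema7a, had log2 ratios of -0.31, -0.39 and -0.11 in pairs 1, 2 and 3 (mean -0.27 ± 0.09, SE; limma adjusted p = 0.255). Its second probe gave -0.14, -0.18 and -0.21, so both Plxnc1 probes had less signal in Cy5 in every pair. The ligand Sema7a had a mean of 0.07 ± 0.09 (adjusted p = 0.695). Plxna1 was the member with more signal in Cy5 among those below an unadjusted p of 0.05. Its normalised intensity was 428, 406 and 355 in Cy5, against 345, 364 and 310 in Cy3, with overlapping ranges. The log2 ratios were 0.31, 0.16 and 0.19 (mean 0.22 ± 0.08; limma adjusted p = 0.274). Plxna1 and Plxna3, both A-type plexins, thus had ratios of opposite sign in all 3 pairs, each from 1 probe, and the difference between them was not tested.

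**Figure D3:**
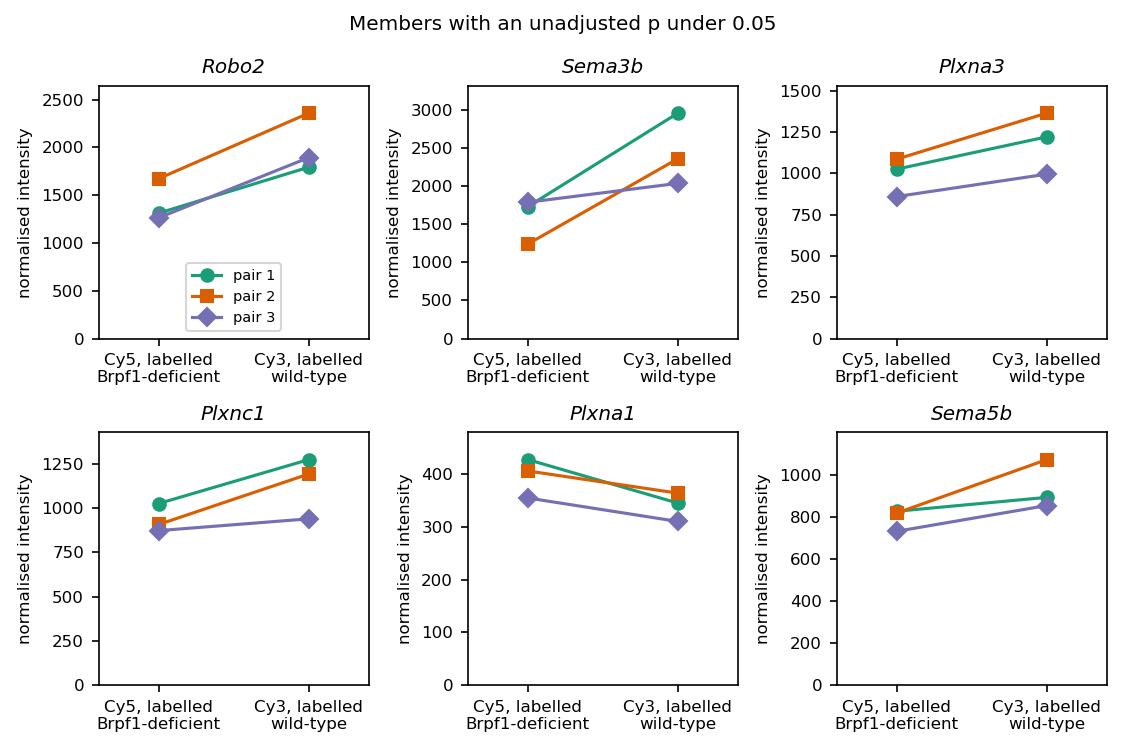
Normalised intensity (linear scale, arbitrary units) of the 6 members with an unadjusted p below 0.05, with Cy5 (labelled Brpf1-deficient) on the left and Cy3 (labelled wild-type) on the right of each panel. Each line joins the channels of 1 array, for pairs 1 to 3. Lines climb towards Cy3 in all panels but that of Plxna1, where they descend.

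Nrp2, a neuropilin and coreceptor of class 3 semaphorins, had log2 ratios of 0.06, 0.32 and 0.19 in pairs 1, 2 and 3 (mean 0.19 ± 0.09, SE; limma adjusted p = 0.347). Its Cy5 intensities (20951, 25211 and 22593) all lay above those in Cy3 (20087, 20191 and 19800). A dimmer Nrp2 probe gave -0.12, 0.04 and 0.92. Over the whole family the channels did not overlap for 3 members with less signal in Cy5 (Robo2, Sema3b and Sema5b; 7.2% of all genes were so) and for Nrp2 with more (6.65% of all genes). Overlap compares intensities across arrays, which were scaled within an array only, while the test uses the ratios within pairs. Plxna2 had a mean of -0.11 ± 0.08, with a second probe at 0.02. Plxnb1, Plxnb2 and Plxna4 had means of -0.17 ± 0.11, -0.16 ± 0.11 and 0.10 ± 0.16, each with pairs on both sides of 0. Plxnd1, the receptor of Sema3e in endothelium, had a mean of -0.06 ± 0.11, while its second probe gave -0.10, 0.18 and 0.63 in pairs 1, 2 and 3. Plxnb3 and the antisense transcript Plxna4os1, which the symbol rule takes in, were not well above background on any array.

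All 8 ephrins on the array were tested, and none had an unadjusted p below 0.05, against 17.3% of all genes. Their median log2 ratio was 0.01, and each 95% interval lay within 0.5 of 0. Among the ephrin-A ligands, which are anchored to the membrane by a lipid tail, Efna4 had the smallest p, with 0.22, 0.31 and 0.02 in pairs 1, 2 and 3 (mean 0.18 ± 0.09, SE; limma adjusted p = 0.373). Efna2 had a mean of -0.09 ± 0.11, Efna5 one of 0.04 ± 0.10, and Efna1 and Efna3 means of -0.01 each, with a second Efna3 probe at 0.02. Among the transmembrane ephrin-B ligands, Efnb2, the marker of arterial endothelium, had 0.04, -0.13 and 0.30 (mean 0.07 ± 0.11; 95% interval -0.21 to 0.35). Efnb1 had 0.06 ± 0.11 and Efnb3 had -0.03 ± 0.14. All 3 ephrin-B ligands were highest in pair 3 and lowest in pair 2, and their median was -0.03, -0.13 and 0.30 in pairs 1, 2 and 3.

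Of the 14 Eph receptors on the array 11 were tested, each by its brightest probe, with a median log2 ratio of -0.01. None was below an unadjusted p of 0.05, against 17.3% of all genes. By these brightest probes no Eph receptor had the same sign in all 3 pairs, against 43.4% of all genes. Both dimmer Epha5 probes and the dimmer Epha7 probe with a mean of -0.19 lay below 0 in every pair. Ephb2, a receptor of ephrin-B ligands, had log2 ratios of 0.25, 0.74 and -0.004 in pairs 1, 2 and 3 (mean 0.33 ± 0.16, SE; limma adjusted p = 0.352), so that pair 2 stood above the others. Ephb4, the venous partner of Efnb2, had 0.20, -0.36 and 0.31 (mean 0.05 ± 0.15), and its second probe gave a mean of 0.05 as well. Epha4, which marks hindbrain segments and somite borders, had 0.02, 0.02 and -0.10 (mean -0.02 ± 0.08; 95% interval -0.23 to 0.19). Ephb3 had a mean of 0.05 ± 0.12, Ephb6 one of -0.13 ± 0.11 and Epha8 one of -0.16 ± 0.09. Epha1 and Ephb1 had means of -0.11 ± 0.11 and -0.01 ± 0.09. Epha2 had 0.60, -0.16 and 0.06 (mean 0.17 ± 0.16), with pair 1 above the others. Epha7 had -0.18, 0.15 and -0.06 (mean -0.03 ± 0.10), and its dimmer probes gave means of 0.20 and -0.19. Epha3, Epha6 and Epha10 did not pass the filter.

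The probes of Epha5, a receptor of the EphA class, disagreed. Its brightest probe had log2 ratios of -0.07, 0.53 and 0.05 in pairs 1, 2 and 3 (mean 0.17 ± 0.14, SE; limma adjusted p = 0.55). The dimmer probes had -0.27, -0.39 and -0.59 (mean -0.42 ± 0.10; adjusted p = 0.2 over all probes) and -0.39, -0.75 and -0.47 (mean -0.54 ± 0.10; adjusted p = 0.153). Both dimmer Epha5 probes thus had less signal in Cy5 in every pair. The one with the larger ratio carries the name through the deposited gene table and not through a RefSeq accession. Averaged over its 3 probes, the Epha5 ratio was -0.26.

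Netrin-1, encoded by Ntn1, is the floor plate attractant of commissural axons. Ntn1 had log2 ratios of 0.61, -0.24 and -0.18 in pairs 1, 2 and 3 (mean 0.06 ± 0.19, SE; limma adjusted p = 0.878), so pair 1 alone lay above 0, and the mean without pair 1 was -0.21. Its second probe gave -0.05. Dcc, the attractive netrin receptor, had a normalised intensity of 15369, 28914 and 18134 in Cy5, against 26063, 23033 and 31304 in Cy3. Cy5 was lower in pairs 1 and 3 and higher in pair 2. These values rest on 1 of 3 Dcc probes, since the other two were well above background on 0 of 3 arrays in both channels. The log2 ratios of Dcc were -0.76, 0.33 and -0.79 (mean -0.41 ± 0.24; limma adjusted p = 0.431). Without pair 2 the mean was -0.77 ± 0.09 (adjusted p = 0.0603), and without pair 1 or pair 3 it was -0.23 or -0.22.

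The repulsive netrin receptors differed little between the channels. Unc5a had log2 ratios of -0.11, -0.27 and -0.02 in pairs 1, 2 and 3 (mean -0.13 ± 0.09, SE; limma adjusted p = 0.478). Unc5b, which is also expressed in endothelium, had 0.24, 0.04 and 0.08 (mean 0.12 ± 0.09; adjusted p = 0.503). Unc5c had a mean of -0.01 ± 0.11, and its second probe gave 0.12. Ntn4 and Unc5d did not pass the filter on dim probes.

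In all, 8 members were not tested. Across their 9 probes the median spot intensity lay between 110 and 270 in Cy5 and between 68.5 and 119 in Cy3, where the median local background of an array was 134.5 to 161.5 and 52 to 58. The flag for a signal well above background was absent from every array for 6 of these 9 probes.

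For 17 members several probes were kept, and in 11 of them the probes lay on both sides of 0. The difference between the highest and the lowest probe was below 0.5 in 15 of the 17, and the exceptions were Epha5 and Sema3a. Tested one by one, 10 of the 79 kept member probes had an unadjusted p below 0.05 (12.7%, against 16.2% of all 31598 probes). All 3 Robo2 probes and both dimmer Epha5 probes were among these 10, which are thus not separate genes. None of the 79 passed an adjusted p of 0.05 in limma.

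**Figure D4:**
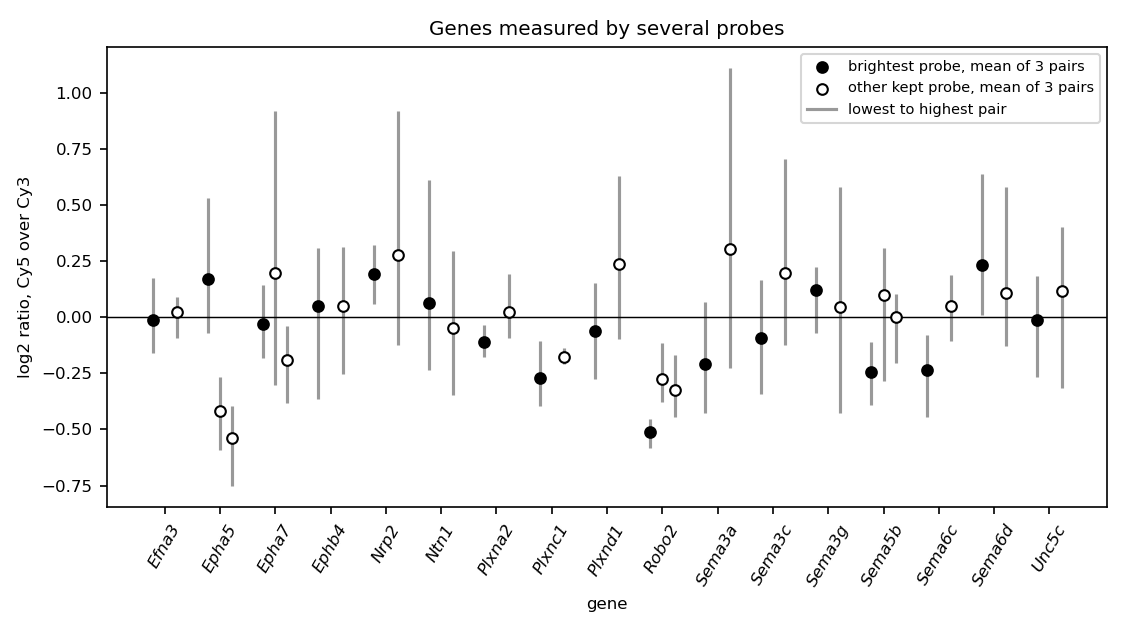
Log2 ratio of Cy5 over Cy3 for the 17 members with several kept probes. Filled circles are the brightest probe, used in the test, open circles the other probes, each at the mean of 3 pairs, and grey lines run from the lowest to the highest pair. The 3 Robo2 probes lie below 0 over their whole range, and the Epha5 probes are split between 0.17 and -0.54.

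The 3 pairs differed from each other. In pair 2, 39 of 58 members lay below 0 (67.2%, against 54.8% of all genes), and in each of pairs 1 and 3 it was 28 (48.3%, against 52.8% and 51.1% of all genes). The median over members was 0.01, -0.14 and 0.01 in pairs 1, 2 and 3, against -0.02, -0.04 and -0.01 over all genes. In pair 2 the median was -0.10 for semaphorins, -0.28 for plexins and Nrp2, -0.11 for ephrins, -0.003 for Eph receptors, -0.30 for Slits and Robos and -0.24 for netrins and their receptors. Pairs 1 and 2 had a correlation of 0.116 across the 58 members, while the correlation was 0.219 between pairs 1 and 3 and 0.104 between pairs 2 and 3. Across all genes the 3 correlations were 0.409, 0.334 and 0.152. Genes share an array and are not independent replicates.

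**Figure D5:**
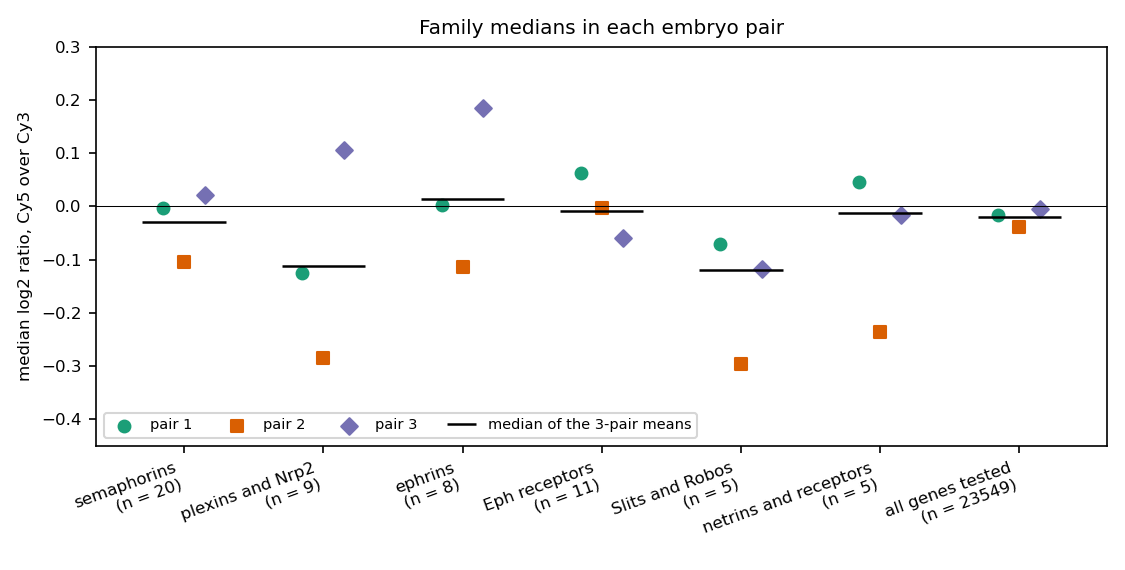
Median log2 ratio of Cy5 over Cy3 in each embryo pair for the 6 families and for all genes tested, with black lines at the median of the 3-pair means. Pair 2 is the lowest point in all families but the Eph receptors, where pair 3 is lowest, and it lies at -0.30 in Slits and Robos.

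Other genes of the pathway, from lists of further cues, receptors and cytoplasmic effectors, likewise held no member past the threshold. Of 23 tested cues, receptors and coreceptors (29 listed), 0 passed an adjusted p of 0.05 in limma and 6 had an unadjusted p below 0.05 (26.1%, against 17.3% of all genes), with a list median of -0.04. Dscam, a netrin receptor, had 0.26 ± 0.09 (SE, n = 3), and Rgma, a ligand of neogenin, had 0.23 ± 0.08. The membrane-anchored netrin relatives Ntng1 and Ntng2 had -0.33 ± 0.12 and -0.25 ± 0.09, the adhesion molecule Chl1 -0.32 ± 0.11 and the endothelial receptor Robo4 -0.23 ± 0.08. The limma adjusted p-values of these genes lay between 0.26 and 0.273. Nrp1, the coreceptor of Sema3a, had 0.02 ± 0.11.

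Of 41 cytoplasmic effectors 0 passed and 6 had an unadjusted p below 0.05 (14.6%, against 17.3% of all genes), 3 with more signal in Cy5 and 3 with less, and the list median was -0.08. Of the 6, 4 are given here. The collapsin response mediators Dpysl2 and Dpysl3 had log2 ratios of -0.38 ± 0.13 and 0.33 ± 0.10 (SE), with opposite signs in all 3 pairs. Limk1, a kinase of cofilin, had -0.34 ± 0.13, and the Rac GTPase-activating protein Chn2 had 0.22 ± 0.08. Their limma adjusted p-values lay between 0.22 and 0.283.

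Markers of the tissues in a whole embryo were measured as well. All listed genes were tested for neural tube (11), neural crest (9), somite and presomitic mesoderm (10), endothelium (10), heart muscle (9), primitive erythroid cells (7), yolk sac (9) and decidua (8), and 9 of 11 for early neurons. In pairs 1, 2 and 3 the list medians were 0.12, 0.09 and -0.08 for neural tube, -0.16, 0.02 and -0.11 for early neurons and 0.03, -0.08 and 0.41 for neural crest. They were -0.47, -0.45 and -0.20 for heart muscle, 0.29, 0.59 and 0.64 for yolk sac and -0.47, 0.77 and 0.14 for primitive erythroid cells. They were -0.15, 0.03 and 0.22 for endothelium, 0.19, 0.46 and -0.26 for somite and presomitic mesoderm and -0.36, -0.55 and 0.43 for decidua. The neuronal tubulin Tubb3 had -0.29, -0.76 and -0.77 in pairs 1, 2 and 3 (mean -0.60 ± 0.13, SE; limma adjusted p = 0.136). The part of these lists in the members' values was not tested. In RNA of whole embryos, fewer cells of a type and less RNA per cell cannot be told apart.

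The authors' deposited table lists 59 probes of 44 members. It does not state its direction, and across 39915 shared probes its log ratio had a correlation of -0.802 with the mean of the 3 pairs given here, so it runs opposite to Cy5 over Cy3. In the authors' deposited table Robo2 had -0.52 once turned to Cy5 over Cy3, with an adjusted p of 0.339, the smallest of any member there, and Sema3b had -0.65 (adjusted p = 0.448). The smallest adjusted p of any probe in the authors' deposited table was 0.264. Of the 33 probes that also entered the test here, 33 had the same direction once turned. The deposited fit is of the same arrays and was turned by its correlation with these ratios. This match is therefore no separate support. A dimmer Sema5b probe, outside the test, had 0.10 there once turned, against -0.0007 here.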

How the data were processed

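Gene expression was measured on 3 two-channel Agilent arrays, each with Brpf1-deficient RNA in Cy5 and wild-type RNA in Cy3. The RNA input was 350 ng, amplified before labelling, per the labels' protocols. Images were read with Feature Extraction 10.7.3.1, per the file headers. With 1 slide and 1 scan time for all arrays, no test for a batch could be made. Each intensity is a deposited median of a spot or its local background, on a linear scale. Processed signals and log10 ratios are held too, per the file headers; the processed signals served as an alternative. The authors' deposited table gives log2 ratios, p-values and scores of a fit; the submitters' processing notes name limma without settings.

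Background was corrected with normexp (offset 50) and ratios were normalised by loess (span 0.3). Control spots and outliers had weight 0. Kept probes were flagged well above background on 2 or more arrays in 1 channel, which left 31598 of 55681 probes, and the brightest probe stood for each gene. Normalised intensities are the channels after these steps, scaled within an array only. Of 29123 probes with a RefSeq accession, 27656 were matched to 1 gene of the GRCm38.p6 table, used for names, and 6 member probes were named through the deposited gene name alone. The mean log2 ratio was tested against 0 with limma 3.58.1 (lmFit, eBayes, two-sided), run in R 4.3.3. Adjusted p-values are Benjamini-Hochberg over the 23549 genes. Between 49.4% and 59.8% of probes were well above background per channel, and no spot was saturated. The number of arrays limits the precision. The fit was tested on simulated data. Members and lists were chosen with earlier results of these data known. Members named with values are those with an unadjusted p below 0.05, or the 2 smallest of a family, those whose probes lie on both sides of 0, and the brightest and dimmest. Others named were chosen after their values were seen. Alternatives were other spans, centring, backgrounds, filters and probe rules, and omission of each pair.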

Additional observations from a re-analysis of the deposited data

How the results depend on the processing

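No member passed an adjusted p of 0.05 in limma under any of the 13 alternatives, and the smallest adjusted p was 0.0603 (Dcc, without pair 2). The number of members at an unadjusted p below 0.05 was 4 to 7 when 1 pair was omitted. It was 4 without pair 1 (6.9%, against 9.1% of all genes) and 7 without pair 2 (12.1%, against 16.3%). Without pair 3 it was 6 (10.3%, against 14.5%). When all probes were tested one by one, 10 member probes were below it (12.7%, against 16.2% of all probes). Robo2 and Sema3b kept an unadjusted p below 0.05 under all 13. The log2 ratio of Robo2 ranged between -0.65 and -0.37 and that of Sema3b between -0.85 and -0.48. Calls over all genes numbered 651 with median centring, 193 with a normexp offset of 16 and 201 with the mean of probes. They numbered 0 with a loess span of 0.02, with processed signals, without the genes above 17, and after omission of any 1 pair (0 to 0), where limma gave 2144 to 3829 genes at an unadjusted p below 0.05. With median centring, which leaves the dependence of ratios on intensity in place, the medians were -0.12 for semaphorins, -0.14 for Eph receptors, -0.25 for Slits and Robos, -0.14 for netrins and receptors, -0.11 for plexins and Nrp2 and 0.013 for ephrins. Under the same centring the median was -0.12 over all members and -0.04 over all genes. When 1 pair was omitted, medians ranged between -0.087 and -0.0029 for semaphorins, -0.17 and -0.060 for plexins and Nrp2, -0.046 and 0.091 for ephrins, -0.041 and 0.022 for Eph receptors, -0.14 and -0.073 for Slits and Robos, and -0.14 and 0.11 for netrins and receptors. Signs were followed only for the members picked by the rule given above, so the lists that follow do not cover all members. Among these, signs turned for Ntn1 with median centring (-0.063), Efna3 without background correction (0.0064) and Epha7 with processed signals (0.00044). With the mean of probes they turned for Sema3a (0.049), Epha5 (-0.26), Efna3 (0.0055), Plxnd1 (0.089), Sema3c (0.051) and Unc5c (0.053). Ratios that turned when 1 pair was omitted ranged between -0.091 and 0.053 for Slit2, -0.21 and 0.22 for Ntn1, -0.12 and 0.043 for Epha7, -0.17 and 0.045 for Plxnd1, -0.22 and 0.032 for Sema3c, -0.012 and 0.29 for Epha5, -0.10 and 0.062 for Efna3, -0.11 and 0.11 for Unc5c, -0.048 and 0.17 for Efnb2, and -0.063 and 0.13 for Efnb1. Sema4g, which was not followed, had 0.33, -0.70 and 0.29 in pairs 1, 2 and 3 and a mean of -0.03. Its sign thus also turns without pair 2. The causes of these changes were not tested. No paired analysis was possible beyond the ratios themselves because each array is 1 pair.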
